A study of Mus musculus with 15 samples.

Results

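The genes described here are the core of the cell-cycle engine: cyclins, cyclin-dependent kinases (CDKs), their inhibitors and phosphatases, the E2F and other factors that drive their transcription, and the proliferation antigen gene Mki67. They are 38 named genes, all found by symbol among the 24421 gene symbols of each table. RNA was sequenced from a mouse biliary epithelial line, C57BL/6 by strain, whose genotype label is ITR-CreERT2;Klf5flox/flox. CreERT2 is a Cre recombinase that 4-OH tamoxifen activates, and the floxed alleles belong to Klf5, a zinc finger transcription factor of epithelia. Every library, controls included, carried this genotype, so the effects of tamoxifen, of active Cre and of Klf5 loss cannot be told apart in the comparison. Cells given 4-OH tamoxifen were compared with cells given ethanol, with 4 against 3 libraries at 12 h and 4 against 4 at 24 h, 15 in all. Whether libraries came from separate cultures, or the line from 1 clone, is not in the labels. The p-values therefore reflect spread among these libraries, and that spread may be technical. The title places the cells in 3D structures in vitro while the design text says in vivo, a point not settled here.

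The data are the authors' comparison per time, with no value per library, so overlap between libraries of the groups cannot be shown. For each gene the authors' deposited table gives a mean normalised read count, a log2 fold change of tamoxifen over ethanol with its standard error (SE), and a Wald p-value. A gene is called here when the authors' adjusted p is under 0.05. The group levels below were computed from the deposited mean and fold. The mean counts sum to 13.9 M per library at 12 h and 11.8 M at 24 h. Klf5 itself fell by 1.29 (SE 0.23) at 12 h and fell by 1.72 (SE 0.08) at 24 h in the authors' deposited table (adjusted p = 9.75e-06 and 9.51e-107 in the authors' Wald test). All 9 biliary markers were detected, Krt18 highest with a mean of 48237 normalised counts and Epcam lowest with 15.7 at 12 h in the authors' deposited table. The biliary markers summed to 141738 normalised counts in ethanol and 137732 in tamoxifen at 12 h, and to 55557 and 60637 at 24 h. Among those called in the authors' deposited table, Krt7 fell by 0.80 (SE 0.17) at 12 h and Krt19 fell by 0.46 (SE 0.09) at 24 h. Fibroblast markers stood at 0 for 6 of 7 genes at 12 h and 4 of 7 at 24 h. The 5 endothelial markers were each at 1.46 normalised counts or less, with Cdh5 at 0 at both times. Of 5 immune markers, Adgre1 and Cd3e were at 0 at both times, Ptprc was at 2.28 and 0.613, and Cd68 was at 76.4 at 12 h and 76.1 at 24 h in the authors' deposited table. The immune list summed to 77.2 normalised counts in ethanol and 80.5 in tamoxifen at 12 h, and to 81.8 and 73.2 at 24 h. The hepatocyte list was near 0 for Alb and at 0 for Cyp2e1, and its level came from Apoa1 and Ttr, with sums of 700.0 normalised counts in ethanol and 736 in tamoxifen at 24 h. The part of other cell types in the results was not tested.

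Cells pass through the cycle on successive waves of cyclin and CDK activity. D-type cyclins with Cdk4 and Cdk6, then E-type cyclins with Cdk2, phosphorylate the pocket proteins Rb1 and Rbl1, which releases E2F factors and starts the transcription of genes for DNA synthesis. A second wave of transcription in G2, driven by Foxm1 and Mybl2 together with the MuvB complex, makes the A- and B-type cyclins, Cdk1 activators and mitotic kinases, and the anaphase-promoting complex then destroys many of these proteins at the exit from mitosis. Bile duct epithelium in an adult animal is largely quiescent and divides after injury, while an established line cycles in culture.

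At 24 h, 6 of 13 members of the mitotic wave and the Cdk1 inhibitor Wee1 were called higher in tamoxifen than in ethanol, and 1 E2F gene was called lower. Of the 37 members with an adjusted p, the authors' deposited table gives 7 that rose, 1 that fell and 29 outside the threshold. The genes that rose were Mki67, Ube2c, Wee1, Ccnb1, Cdc20, Plk1 and Ccnb2, and the gene that fell was E2f2. On GRCm38, by GENCODE, they lie at chr7:135689784-135716361 (Mki67), chr2:164769898-164778822 (Ube2c), chr7:110122046-110143286 (Wee1), chr13:100778650-100786570 (Ccnb1), chr4:118432901-118437352 (Cdc20), chr7:122159439-122169873 (Plk1), chr9:70407692-70421547 (Ccnb2) and chr4:136172394-136196057 (E2f2). The rises are 18.9% of the members, beside 5.9% of all 11648 genes called higher at 24 h, and the fall is 2.70%, beside 6.52% called lower. In either direction 12.4% of all genes were called at 24 h. At an unadjusted p under 0.05 there were 20 members, 54.1%, beside 2845 of all 15819 genes with a p. The median log2 fold of the members at 24 h was 0.09, against 0.00 over all genes with an adjusted p.

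At 12 h 0 of 37 members were called by the authors' Wald test, beside 0.943% of 13044 genes called in either direction (0.215% higher and 0.728% lower). At an unadjusted p under 0.05 there was 1 member, 2.70%, against 4.90% of all genes with a p. That member was Wee1, at 0.33 (SE 0.15, unadjusted p = 0.0322, adjusted p = 0.723 in the authors' deposited table). The errors at 12 h were wide. The median SE of the members was 0.19 at 12 h and 0.10 at 24 h, and over all genes with a mean of at least 50 it was 0.16 and 0.08. The plot of folds by role shows wider intervals at 12 h for most members. The SE was larger at 24 h for Ccnb2, Cdc25b and Cdkn2a, and the size of the difference varied among the others.

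**Figure D1:**
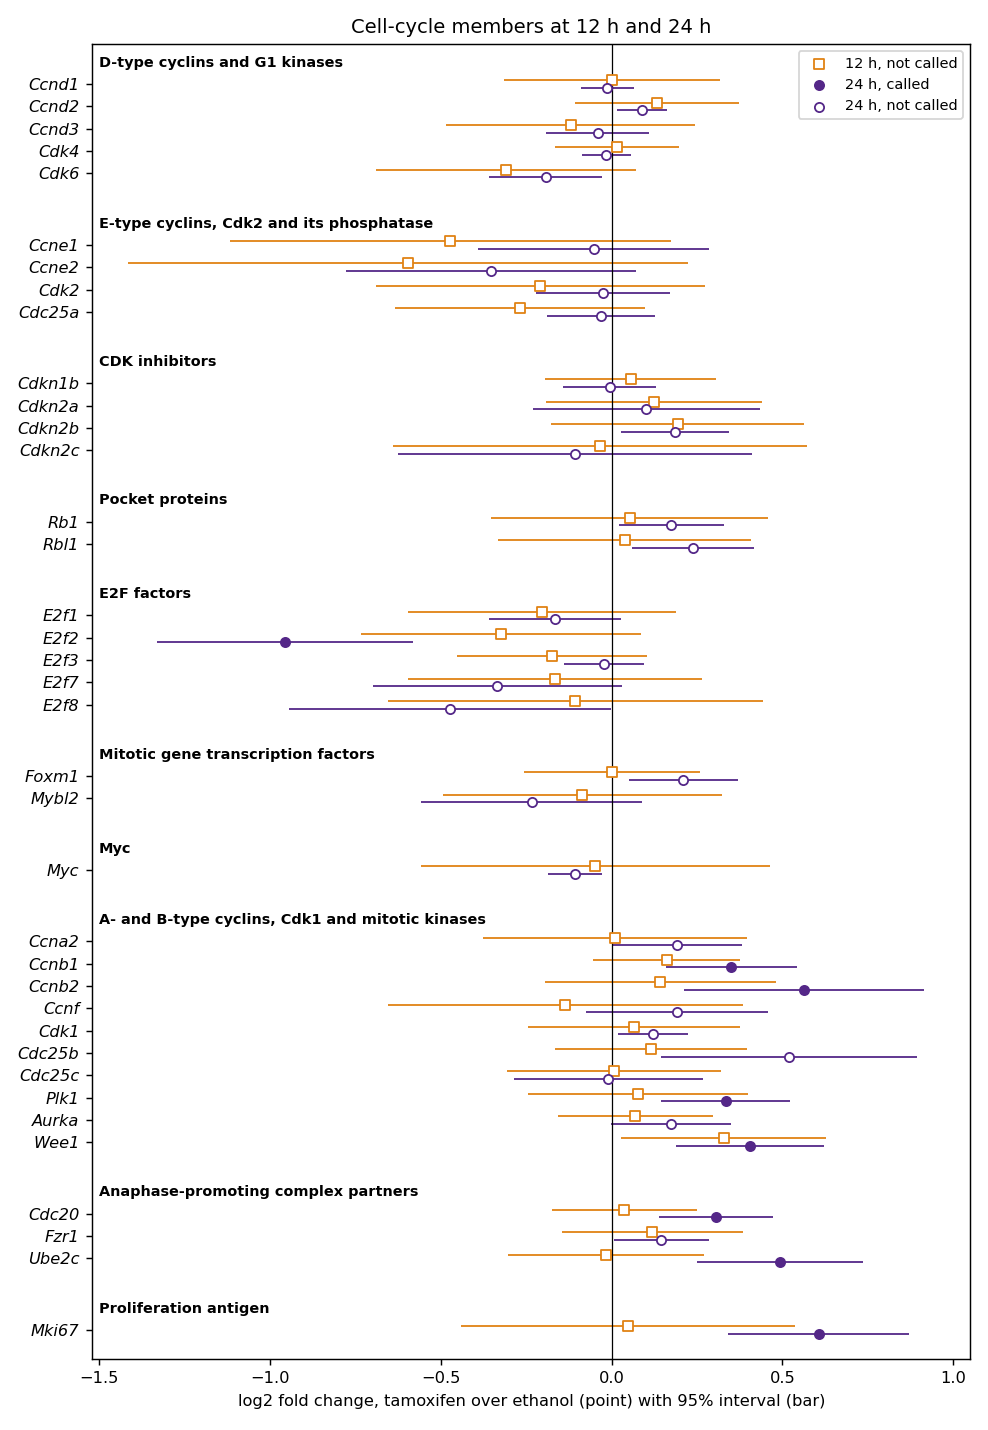
Log2 fold change of tamoxifen over ethanol (x axis) for the 37 measured members by role (y axis), with 12 h as squares, 24 h as circles, 95% intervals as bars and called members filled. The 8 filled circles are E2f2, at -0.96, and 7 members between 0.30 and 0.61, and no member is filled at 12 h.

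The B-type cyclins bind Cdk1 and drive entry into mitosis, and both were higher in tamoxifen at 24 h. Ccnb1 went from 347 normalised counts in ethanol to 443 in tamoxifen, a log2 fold of 0.35 (SE 0.10, adjusted p = 0.00514 in the authors' deposited table). Ccnb2 went from 162 to 239 normalised counts, a fold of 0.56 (SE 0.18, adjusted p = 0.019 in the authors' deposited table). The interval of the Ccnb2 level, 116% to 189% of ethanol, overlaps that of Ccnb1, 112% to 146%. At 12 h the log2 folds in the authors' deposited table were 0.16 (SE 0.11) for Ccnb1 and 0.14 (SE 0.17) for Ccnb2. A pseudogene of each is annotated (Ccnb1-ps and Ccnb2-ps), and reads shared with them would make these values uncertain.

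Ccna2, the cyclin of S phase and G2, did not pass the threshold at 24 h, with 510.5 normalised counts in ethanol, 583 in tamoxifen and a log2 fold of 0.19 (SE 0.10, adjusted p = 0.206 in the authors' deposited table). Cdk1, the mitotic kinase itself, stood at 1061 and 1154 normalised counts, a fold of 0.12 (SE 0.05, adjusted p = 0.111 in the authors' deposited table). Its interval at 24 h, 101% to 117% of ethanol, ends below the estimate for either B-type cyclin but overlaps the interval of each. The differences were not tested. Ccnf, an F-box protein that marks other cell-cycle proteins for destruction, was at 0.19 (SE 0.14, adjusted p = 0.418 in the authors' deposited table).

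The polo-like kinase gene Plk1, which acts on centrosomes, kinetochores and cytokinesis, rose from 218 to 274 normalised counts at 24 h, a log2 fold of 0.33 (SE 0.10, adjusted p = 0.00735 in the authors' deposited table). Aurka, the centrosomal kinase that activates Plk1, was at 403 and 455, a fold of 0.17 (SE 0.09) that did not pass the threshold (adjusted p = 0.218 in the authors' deposited table). Wee1 inhibits Cdk1 by phosphorylation and so restrains mitosis. It rose from 149 to 197 normalised counts at 24 h, a log2 fold of 0.40 (SE 0.11, adjusted p = 0.0042 in the authors' deposited table), and its 12 h value of 0.33 lay close to that.

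The phosphatases that remove the Wee1 mark gave unlike values. Cdc25b stood at 67.8 normalised counts in ethanol and 97.1 in tamoxifen at 24 h, a log2 fold of 0.52 (SE 0.19) (adjusted p = 0.0524 in the authors' deposited table), just outside the threshold. With only genes of a mean of at least 50 adjusted together, its adjusted p was 0.0472, and over its 5 alternatives at 24 h it ranged from 0.0472 to 0.0709. Cdc25c had 115 normalised counts in ethanol and 114 in tamoxifen, a fold of -0.01 (SE 0.14) in the authors' deposited table, with an interval from 82.0% to 120% of the ethanol level. The 2 intervals overlap, and the difference between these genes was not tested.

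The partners of the anaphase-promoting complex were next. Ube2c, the ubiquitin-conjugating enzyme that serves the complex, rose from 486 to 684 normalised counts at 24 h, a log2 fold of 0.49 (SE 0.12, adjusted p = 0.00142 in the authors' deposited table). Cdc20, the activator that triggers anaphase, rose from 334 to 413, a fold of 0.30 (SE 0.09, adjusted p = 0.00546 in the authors' deposited table). Fzr1, the activator that keeps the complex working in G1, was at 0.14 (SE 0.07, adjusted p = 0.182 in the authors' deposited table). The complex's own subunits, 14 genes of a fixed list, held 0 calls at 24 h (authors' Wald test), and none of the 14 had an unadjusted p under 0.05, with a median log2 fold of -0.02. The library kit does not mark strand, and 22.8% of the exon bases of Ube2c overlap Tnnc2 on the opposite strand, so reads of the pair cannot be told apart there.

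Mki67, which coats mitotic chromosomes and is the standard marker of cycling cells, rose most among the members at 24 h. It went from 419 normalised counts in ethanol to 637 in tamoxifen, 152% of ethanol with an interval of 127% to 183% (log2 fold 0.61, SE 0.13, adjusted p = 0.000187 in the authors' deposited table). Its SE was 1.79 times the median SE of genes of similar mean, and those of Ube2c and Ccnb2 were 1.70 and 1.60 times. The SEs of Ccnb1, Cdc20, Plk1 and Wee1 were 0.93 to 1.16 times that median. Raising each SE to at least that of similar genes left all 8 calls in place at 24 h. Among the called members this altered the SEs of Cdc20, Plk1 and Wee1 only. It therefore does not bear on the wide SEs of Mki67, Ube2c and Ccnb2, which stayed as they were.

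By textbook peak of expression, 13 members belong to G2 and mitosis, namely Ccna2, Ccnb1, Ccnb2, Ccnf, Cdk1, Cdc25b, Cdc25c, Plk1, Aurka, Cdc20, Ube2c, Mki67 and Foxm1. Of these, 12 lay above 0 at 24 h, 6 were called higher and none lower, and their median log2 fold was 0.30. Another 9 members peak at G1/S: Ccne1, Ccne2, Cdc25a, E2f1, E2f2, E2f7, E2f8, Mybl2 and Rbl1. Of those 8 lay below 0, 1 was called lower and none higher, and their median was -0.23. Over all genes with an adjusted p at 24 h, 49.9% lay above 0, 5.9% were called higher and 6.52% lower. At 12 h 11 of the 13 and 1 of the 9 lay above 0, beside 48.6% of all genes with an adjusted p. The medians at 12 h were 0.05 and -0.20, beside median SEs of 0.16 and 0.21, with 0 calls in either set by the authors' Wald test. The plot of fold against level sets both sets among all other genes.

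**Figure D2:**
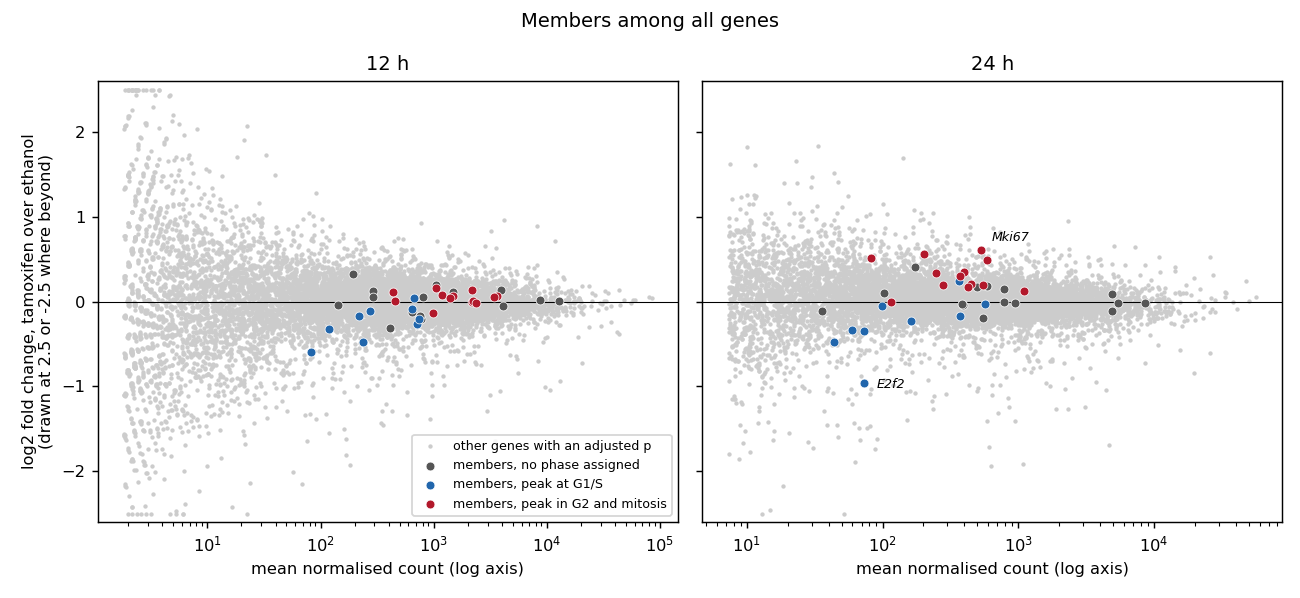
Log2 fold change (y axis) against mean normalised count (x axis, log scale) at 12 h (left) and 24 h (right), with members coloured by the phase in which they peak and other genes in grey. At 24 h the G2 and mitosis members lie between -0.01 and 0.61 and those of G1/S between -0.96 and 0.24.

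Promoters of the genes that rose are shown because genes of the mitotic wave are known to share a small set of promoter elements. The cell cycle genes homology region (CHR) is bound by the MuvB complex, and CCAAT boxes are bound by the factor NF-Y. The sequences are the 250 bases before the RefSeq start on GRCm38.p6, written 5′ to 3′ on the strand of the gene, with the CHR (TTTGAA or TTCGAA) and the CCAAT box on either strand in capitals. They belong to the 4 called G2 and mitosis members with the smallest p, at chr7:135716380-135716629 (reverse strand) for Mki67, chr2:164769679-164769928 (forward) for Ube2c, chr13:100786487-100786736 (reverse) for Ccnb1 and chr4:118437344-118437593 (reverse) for Cdc20.
Mki67: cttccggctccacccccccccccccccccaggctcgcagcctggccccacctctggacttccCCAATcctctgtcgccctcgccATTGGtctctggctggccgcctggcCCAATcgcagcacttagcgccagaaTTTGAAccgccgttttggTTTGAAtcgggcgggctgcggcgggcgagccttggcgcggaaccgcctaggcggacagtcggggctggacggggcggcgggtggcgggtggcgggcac
Ube2c: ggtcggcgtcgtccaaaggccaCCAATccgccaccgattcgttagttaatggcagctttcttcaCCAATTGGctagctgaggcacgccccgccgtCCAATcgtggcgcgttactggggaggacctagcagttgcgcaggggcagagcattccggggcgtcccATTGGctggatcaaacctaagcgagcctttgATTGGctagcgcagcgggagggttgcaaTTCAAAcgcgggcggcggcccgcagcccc
Ccnb1: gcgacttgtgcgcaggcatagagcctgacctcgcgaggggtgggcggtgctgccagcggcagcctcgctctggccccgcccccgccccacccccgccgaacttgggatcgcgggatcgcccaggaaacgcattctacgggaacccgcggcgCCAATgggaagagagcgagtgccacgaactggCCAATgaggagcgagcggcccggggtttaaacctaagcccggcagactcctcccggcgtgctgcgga
Cdc20: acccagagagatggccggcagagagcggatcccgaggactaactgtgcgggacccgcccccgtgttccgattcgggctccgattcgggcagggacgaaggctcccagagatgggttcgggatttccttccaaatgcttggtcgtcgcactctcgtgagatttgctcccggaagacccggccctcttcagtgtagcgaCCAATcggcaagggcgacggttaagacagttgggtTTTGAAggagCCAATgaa

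In these promoters Mki67 holds CHR motifs that begin at -116 and -98 from the start, Ube2c holds 1 at -29 on the opposite strand and Cdc20 holds 1 at -18. Ccnb1 holds none with these letters and carries CCAAT boxes at -99 and -67. RefSeq lists a promoter for 28 of the 38 members, and motifs were searched in 300 bases, 250 before to 50 after the start, using the most upstream start of a gene. Of the 10 G2 and mitosis members listed, 9 held a CHR and 10 a CCAAT box, and 9 held both. Both were present in 1 of 8 G1/S members, E2f8, and in 5.76% of the 8918 genes with a listed promoter and an adjusted p at 24 h. Among all 32851 promoters of the RefSeq table, 19.2% held a CHR, 37.4% a CCAAT box and 7.52% both. A match of letters is a description and not evidence of binding.

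Members that held the same motifs spanned a range of estimated folds at 24 h. Cdk1 and Aurka held CHR and CCAAT motifs, at log2 folds of 0.12 (interval 0.02 to 0.22) and 0.17 (-0.003 to 0.35). Mki67 and Ccnb2 held them too, at 0.61 (0.34 to 0.87) and 0.56 (0.21 to 0.92). The Ccnb2 interval overlaps those of Cdk1 and Aurka. The Mki67 interval overlaps that of Aurka but not that of Cdk1. Differences between these genes were not tested. CCAAT boxes came in pairs on 1 strand with starts 31 to 33 bases apart in 5 of the 10 G2 and mitosis members, namely Aurka, Ccnb1, Ccnb2, Cdk1 and Ube2c. This spacing was looked for after the positions were seen. It was present in 1 of the 18 other listed members (E2f7), in 1.74% of the genes with an adjusted p and in 0.794% of all promoters. The map of motifs gives the position of each.

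**Figure D3:**
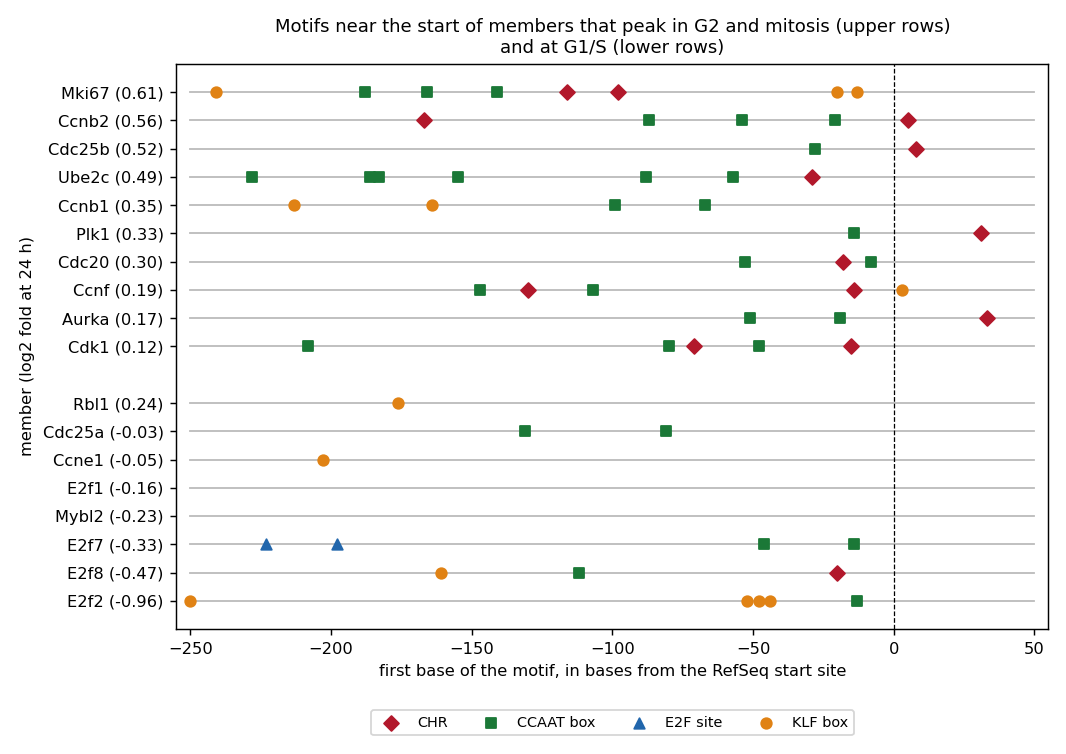
First base of each motif (x axis, bases from the RefSeq start) in the 300-base promoters of 10 members that peak in G2 and mitosis and 8 that peak at G1/S (y axis, ordered by log2 fold at 24 h, given in brackets). CHR motifs (diamonds) are present in 9 of the 10 upper rows and 1 of the 8 lower rows.

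Foxm1 and Mybl2, which switch on the mitotic wave, did not pass the threshold at either time. Foxm1 had 414 normalised counts in ethanol and 479 in tamoxifen at 24 h, a log2 fold of 0.21 (SE 0.08, adjusted p = 0.0722 in the authors' deposited table), and at 12 h its fold was 0.00 (SE 0.13). Mybl2 had 176 and 149, a fold of -0.23 (SE 0.17, adjusted p = 0.414 in the authors' deposited table), and its interval runs from 67.9% to 106% of ethanol.

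Among the E2F factors, E2f2 was the one called at 24 h. E2f2, an activator of S-phase genes of the same subgroup as E2f1 and E2f3, went from 95.9 normalised counts in ethanol to 49.4 in tamoxifen. That is 51.6% of ethanol with an interval of 39.8% to 66.8%, and E2f2 fell by 0.96 on the log2 scale (SE 0.19, adjusted p = 2.1e-05 in the authors' deposited table). At 12 h E2f2 was at 135 and 108 normalised counts, a fold of -0.32 (SE 0.21, adjusted p = 0.999 in the authors' deposited table). The other activators were nearer to the ethanol level at 24 h. E2f1 was at 89.2% with an interval of 78.1% to 102%, and E2f3 at 98.5% with an interval of 90.8% to 107%. Neither interval meets that of E2f2, although the difference between the genes was not tested. E2f3 was also the most highly expressed per length of these at 24 h, with 174 mean normalised counts per kb of exon against 117 for E2f1 and 14.9 for E2f2.

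The atypical repressors E2f7 and E2f8, which close the wave of E2F targets, were low at 24 h. E2f7 had 66.9 normalised counts in ethanol and 53.1 in tamoxifen, a fold of -0.33 (SE 0.19, adjusted p = 0.262 in the authors' deposited table). E2f8 had 51.1 and 36.8, a fold of -0.47 (SE 0.24, adjusted p = 0.206 in the authors' deposited table). Both lay below 0 without passing the threshold, and 11.2% of the exon bases of E2f8 overlap a gene on the opposite strand. All 5 E2F members lay below 0 at both times, with medians of -0.17 at 12 h and -0.33 at 24 h.

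The E2f2 promoter (chr4:136172024-136172273, forward strand of GRCm38.p6) is shown with that of Rbl1 (chr2:157204535-157204784, reverse strand), the G1/S members with the smallest p at 24 h. Krüppel-like factors bind GC-rich and CACCC boxes, so the capitals mark a KLF box (GGGTGG, either strand) and an E2F site (TTCCCGC, either strand).
E2f2: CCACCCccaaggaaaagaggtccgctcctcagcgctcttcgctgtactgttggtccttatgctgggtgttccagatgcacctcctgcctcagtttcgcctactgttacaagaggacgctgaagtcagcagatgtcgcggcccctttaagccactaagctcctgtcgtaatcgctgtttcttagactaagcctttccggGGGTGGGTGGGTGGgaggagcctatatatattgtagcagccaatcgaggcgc
Rbl1: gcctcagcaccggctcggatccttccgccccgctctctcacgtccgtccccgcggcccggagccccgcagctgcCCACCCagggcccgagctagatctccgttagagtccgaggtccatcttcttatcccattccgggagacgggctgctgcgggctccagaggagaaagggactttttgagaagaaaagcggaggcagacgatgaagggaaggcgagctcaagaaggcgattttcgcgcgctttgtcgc

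E2f2 held 4 KLF boxes in this window, 3 of them overlapping in a run that begins at -52, and Rbl1 held 1, at -176. Neither held the E2F site in these letters. A KLF box was present in 4 of 8 G1/S members, in 3 of 10 G2 and mitosis members, and in 36.1% of the genes with a listed promoter and an adjusted p at 24 h. Of the mitotic members that rose, Mki67 held 3 and Ccnb1 held 2, while Ube2c, Cdc20, Plk1 and Ccnb2 held 0. The GC box (GGGCGG) was also searched, and E2f2 held 0 and Rbl1 held 1. It was present in 7 of 8 G1/S members, in 9 of 10 G2 and mitosis members and in 67% of the same genes. The E2F site in these letters was found in E2f7 alone of the G1/S members, and in 9.05% of the genes with a listed promoter and an adjusted p. Other spellings of an E2F site were not searched, so the count does not show that such sites are absent.

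None of the 5 D-type cyclins and G1 kinases was called at 24 h, where 2 of them, Ccnd2 above and Cdk6 below the ethanol level, had an unadjusted p under 0.05. Ccnd1, the D-type cyclin with the highest level per length, had 8585 normalised counts in ethanol and 8509 in tamoxifen, 99.1% with an interval of 93.9% to 105%. Cdk4, its kinase, was at 99.0% with an interval of 94.2% to 104%. Ccnd2 was at 106% (101% to 112%) with an adjusted p of 0.104, and Ccnd3 at 97.2% (87.6% to 108%) (adjusted p = 0.811 in the authors' deposited table). Cdk6, the other G1 kinase, was at 87.5% (78.0% to 98.1%) (adjusted p = 0.124 in the authors' deposited table). Per kb of exon the mean normalised counts at 24 h were 1815 for Ccnd1, 517 for Ccnd2 and 45.0 for Ccnd3, against 1669 for Cdk4 and 39.1 for Cdk6. Opposite-strand overlap covers 23.4% of the exon bases of Ccnd1 and 19.7% of those of Cdk4, and a pseudogene of Ccnd3 is annotated. Such overlap is not confined to the members for which it is given. It covers 17.4% for Ccne2, 12.7% for Cdc25c, 12.5% for Ccna2 and 7.1% for Plk1, for example.

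E-type cyclins start S phase with Cdk2, and Cdc25a is the phosphatase that activates this kinase. Ccne1 had 100 normalised counts in ethanol and 96.4 in tamoxifen at 24 h, a fold of -0.05 (SE 0.17), and Ccne2 had 82.5 and 64.6, a fold of -0.35 (SE 0.22), in the authors' deposited table. Cdk2 was at 98.4% of ethanol (85.8% to 113%) and Cdc25a at 97.8% (87.7% to 109%). At 12 h all 4 lay below 0, with Ccne1 at -0.47 (SE 0.33), Ccne2 at -0.59 (SE 0.42), Cdk2 at -0.21 (SE 0.25) and Cdc25a at -0.27 (SE 0.19) in the authors' deposited table. None passed the threshold, and their SEs at 12 h were 1.21 to 1.82 times those of genes of similar mean.

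Of the 5 CDK inhibitors among the members, 4 were detected, and none of these was called at either time. Cdkn1a and Cdkn2d are not members and are not described here. Cdkn1b, which blocks Cdk2 complexes in resting cells, had 786 normalised counts in ethanol and 783 in tamoxifen at 24 h, 99.7% with an interval of 90.7% to 110%. Cdkn2b, an inhibitor of Cdk4 and Cdk6, was at 114% (102% to 127%) (adjusted p = 0.116 in the authors' deposited table). Cdkn2a, whose locus encodes a related inhibitor and an activator of p53, was detected with a mean of 289 normalised counts at 12 h and 102 at 24 h in the authors' deposited table. Its folds were 0.12 (SE 0.16) and 0.10 (SE 0.17) in that authors' deposited table. Cdkn2c had a mean of 35.8 at 24 h and a fold of -0.11 (SE 0.26) in the authors' deposited table, with an interval from 64.9% to 133% of ethanol. Cdkn1c had 0 reads in all 7 libraries at 12 h and all 8 at 24 h, and 3 reads over all libraries would correspond to 0.0309 and 0.0317 CPM, a share of the table's summed counts.

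The pocket proteins hold E2F factors inactive until CDKs phosphorylate them. Rb1 was at 466 normalised counts in ethanol and 525 in tamoxifen at 24 h, a fold of 0.17 (SE 0.08, adjusted p = 0.136 in the authors' deposited table). Rbl1 was at 335 and 395, a fold of 0.24 (SE 0.09, adjusted p = 0.0652 in the authors' deposited table). Both lay above 0 and outside the threshold. Rbl1 was the G1/S member above 0 at 24 h. Rbl2, the third pocket protein and no member here, rose by 0.25 (SE 0.07, adjusted p = 0.00726 in the authors' deposited table), with 11.8% of its exon bases overlapping an opposite gene.

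Myc, the growth factor-responsive activator of G1 genes, had 5049 normalised counts in ethanol and 4689 in tamoxifen at 24 h. That is 92.9% of ethanol with an interval of 88.0% to 98.0% and an adjusted p of 0.0561 in the authors' deposited table. At 12 h Myc had the widest SE of any member for its level, 1.97 times that of genes of similar mean, with a fold of -0.05 (SE 0.26) in the authors' deposited table. Over its 5 alternatives at 24 h the adjusted p ranged from 0.0507 to 0.156.

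Neighbouring genes of the pathway were read from 8 lists of 108 genes in all. At 24 h the authors' deposited table gives 105 of them an adjusted p, with 6 higher (5.71%), 1 lower (0.952%) and a median log2 fold of 0.00. The share higher is near that of all genes (5.9%), and the share lower is below it (6.52%). At an unadjusted p under 0.05 there were 22 of the 108 (20.4%), beside 17.98% of all genes with a p. In the list of mitotic kinase partners and the spindle checkpoint, 3 of 15 rose. These were the checkpoint kinases Bub1b at 0.41 (SE 0.11) and Ttk at 0.34 (SE 0.10) and the centriole kinase Plk4 at 0.24 (SE 0.09) in the authors' deposited table. A further 7 of the 15 lay above 0 and 1 below at an unadjusted p under 0.05, and the list's median was 0.22. Among MuvB, E2F, DP and pocket proteins, Rbl2 rose and E2f4, the E2F of quiescent cells, fell by 0.16 (SE 0.05, adjusted p = 0.0165 in the authors' deposited table). The checkpoint kinase Atr rose by 0.20 (SE 0.06) and Mxd4, an antagonist of Myc, by 0.36 (SE 0.11) in the authors' deposited table.

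In the list of 20 G1/S and replication genes, 0 were called at 24 h by the authors' Wald test, 3 (15%) lay lower at an unadjusted p under 0.05 and none higher, and the median was -0.06. Of all 15819 genes with a p, 1436 lay lower and 1409 higher at that p, 17.98% for both directions together. Whether the list differed from all genes was not tested. The lists of SCF ligase and Cks partners (9 genes), the anaphase-promoting complex (14) and other cyclins and CDKs (23) held 0 calls at 24 h by the same test. They held 1, 0 and 2 genes at an unadjusted p under 0.05, each list below the share of all genes. At 12 h none of the 108 had even an unadjusted p under 0.05, and 0 were called (authors' Wald test).

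A call at 24 h and none at 12 h does not show that the response differed, so the difference of the 2 folds was tested for each gene with Benjamini-Hochberg adjustment over 14981 genes. Of the 37 members tested 0 passed, beside 0.0134% of all genes, and every member had an adjusted p of 0.9999 in this test. The 3 members with the smallest unadjusted p in this test are given for description only. The first was Ube2c, with a 24 h fold higher than that at 12 h by 0.51 (SE 0.19, unadjusted p = 0.008 in the Wald test of the difference). The others were Mki67, higher by 0.56 (SE 0.28), and E2f2, with a difference of -0.63 (SE 0.28). Wee1 differed by 0.08 (SE 0.19), with an interval from -0.29 to 0.45.

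Levels of the mitotic members also differed between the 2 tables. The times were normalised separately, so each mean was divided by its own table's total and scaled to CPM, and no test across tables was made; time and any batch cannot be told apart. All 13 G2 and mitosis members were lower at 24 h than at 12 h, at 0.11 to 0.44 of the 12 h level with a median of 0.29. Over 9861 genes with a mean of at least 50 at both times the median ratio was 0.96. Ccnb2 went from 159 to 16.9 CPM and Mki67 from 245 to 44.6. For G1/S members the median ratio was 0.58, from 0.19 for E2f8 to 1.04 for Ccne2. Rb1 went the other way, from 20.9 to 41.8 CPM, and Ccnd2, Cdk6, E2f3 and Myc were at 1.46, 1.57, 1.47 and 1.39 of the 12 h level. The rises of the mitotic genes at 24 h were therefore measured at lower levels of these transcripts than at 12 h. In bulk RNA, fewer cycling cells and less of a transcript per cell cannot be told apart.

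**Figure D4:**
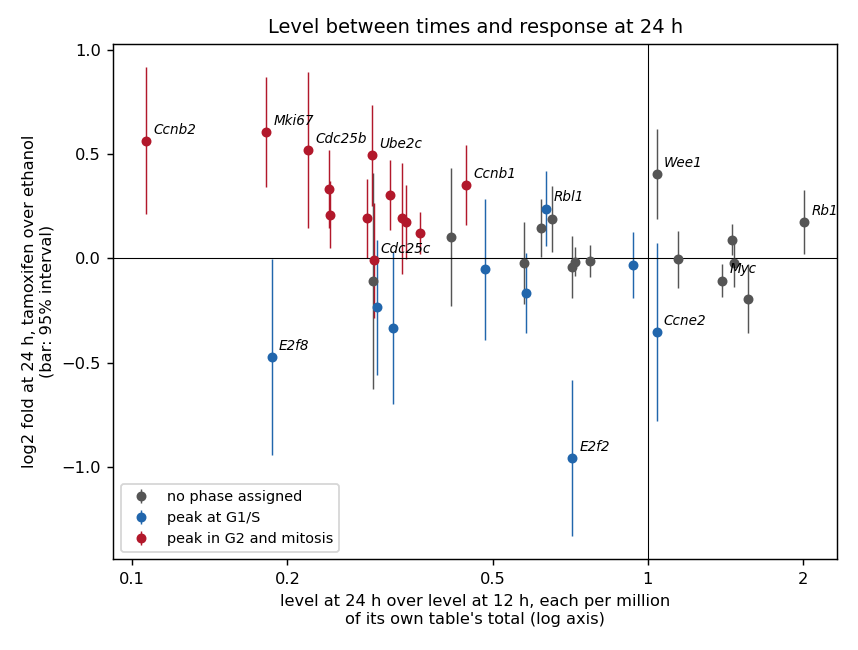
Log2 fold of tamoxifen over ethanol at 24 h (y axis, bars are 95% intervals) against the ratio of a member's level at 24 h to that at 12 h (x axis, log scale, each as CPM of its table's total). The G2 and mitosis members lie between 0.11 and 0.44 on the x axis, and E2f2 lies lowest on the y axis at -0.96.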

How the data were processed

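Libraries were prepared from total RNA with a TruSeq v2 kit per the labels' protocols. HISAT2, mm10 and DESeq2 are named in the submitters' processing notes, with no versions, roles or order. No source used here gives the counter or annotation. Per the file headers, the authors deposited for each gene a signal (the mean normalised count over the libraries of a time), a log2 fold change with its SE, a Wald score, a p-value and an adjusted p-value. No count per library was used, and the tables held 0 columns of samples outside the series. The ethanol library with the number 2 at 12 h was not analysed here.

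The planned fallback for comparison tables applied, so the test at each time is the authors' Wald test, adjusted by the Benjamini-Hochberg method. Group levels were computed from the mean, the fold and the number of libraries. The direction was checked at 12 h: the 7 lowest distinct means, those of single reads, split into 3 with negative and 4 with positive folds, as 3 ethanol and 4 tamoxifen libraries require. At 24 h the split is 4 and 4 and checks nothing, so the direction was taken as at 12 h. Size factors read from those means ran from 0.955 to 1.05 (12 h) and from 0.934 to 1.07 (24 h). Intervals are 95%, 1.96 SE on each side. They and the floor of 3 reads cover counting error and the SE only. The SE of similar genes is a running median over 201 genes by mean. The difference between times was divided by the root of the summed squared SEs. Scripts were tested on simulated data. All members are named, and of other pathway genes up to 4 called per list. Members and lists were chosen with earlier results of these data known. Exon lengths and overlaps come from GENCODE on GRCm38, which mm10 names, and promoters from RefSeq. Tools were matplotlib 3.10.9, scipy 1.17.1, pandas 2.3.3, numpy 2.4.6 and Python 3.11.15. A result for 1 biliary marker is not reported here.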

Additional observations from a re-analysis of the deposited data

How the results depend on the processing

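The count of called members at 24 h was 7 to 9 over the 6 alternatives run (adjustment over all genes with a p, over genes with a mean of at least 50 or 10, centred folds, raised SEs, and an adjusted p under 0.01), against 8 as reported. At 12 h it was 0 under each, and the difference between times passed for 0 members under each of its 4 alternatives. The alternative with an adjusted p under 0.01 could not have raised either count of 0. Cdc25b passed at 24 h with a minimum mean of 50 (adjusted p = 0.0472) and with centred folds (adjusted p = 0.0486), in the authors' Wald test adjusted anew. Cdkn1b at 24 h changed sign with centred folds, to 0.0024 from a fold near 0. Centring moved all folds by under 0.01. No paired analysis was possible because the tables hold no value per library, so the fit with a replicate block, leaving out each replicate, and edgeR or DESeq2 on counts were not run.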

Other observations

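Promoter motifs were also set against the calls of all genes with a RefSeq promoter and an adjusted p at 24 h. Of 514 genes with both a CHR and a CCAAT box, 7% were called higher and 5.25% lower in the authors' deposited table, with a median log2 fold of 0.03. Without the cell-cycle members, 6.16% of 503 were called higher and 5.37% lower. Of 4740 genes with neither motif, 5.61% were called higher and 6.62% lower, with a median of 0.00. The pair of motifs that 9 of 10 listed G2 and mitosis members carried was therefore present in many genes that were not called.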
